A study of Mus musculus with 7 samples.

Results

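Transcript levels of 44 genes of the core spliceosome and of splice site recognition were described in blood stem and progenitor cells of 7 mice, of which 3 carried the label TRAF6 transgenic and 4 were their wild-type littermates. The 44 were all genes on the array whose transcript cluster (the probes that one array uses for one gene) carried a single symbol beginning with Sf3, Prpf, Snrp, U2af, Lsm, Luc7l, Zrsr or Cwc, or reading Sf1 or U2surp, out of 14860 genes with a single-symbol cluster. Each of them had exactly 1 such cluster. A further 8 clusters listed such a symbol together with that of another gene and were left out. No single-symbol cluster was found for U2af1, Zrsr1, Zrsr2, Sf3a1, Snrpc or Prpf4, and these genes were not analysed here.

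All 7 mice were untreated FVB adults. The cells were LSK cells from bone marrow, which lack lineage markers and carry Sca-1 and c-Kit, and each mouse gave 1 Affymetrix mouse exon array read as log2 values. The promoter that drives the transgene and the sex of the mice are not given in the sources used here. TRAF6 is a ubiquitin ligase of innate immune signalling, and the series, by its title, concerns a link from TRAF6 to a splicing factor and to myelodysplasia, a group of blood stem cell disorders.

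The spliceosome removes introns from pre-mRNA. It is built anew on each intron from small nuclear ribonucleoproteins (snRNPs). The U1 snRNP first pairs with the 5′ splice site, SF1 and the U2AF proteins recognise the branch point and the 3′ splice site, and the U2 snRNP with its SF3A and SF3B complexes then takes over the branch point. The U4/U6.U5 tri-snRNP joins next, U1 and U4 leave, and the complex around PRP19 stabilises the active form. Sm and Lsm proteins form the rings that hold the snRNAs. In human myelodysplasia, SF3B1, U2AF1 and ZRSR2 of this machinery are recurrently mutated, and changes in LUC7L2, PRPF8, SF1, U2AF2 and PRPF40B have also been described.

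Traf6 was not higher in the group labelled transgenic. Traf6 had 8.06, 8.14 and 7.52 on labelled transgenic arrays 03, 04 and 05, against 7.95, 8.20, 8.12 and 8.33 on wild-type arrays 21 to 24, a difference of -0.24 (SE 0.18, limma adjusted p = 0.676; exact permutation test, two-sided, p = 0.286, where 0.0286 is the smallest possible). It was -0.05 without labelled transgenic 05 and -0.36 without labelled transgenic 04. Whether these probes read the transgene was not tested, and the first group is therefore called labelled transgenic. The Y-linked gene Eif2s3y stood at 2.91 to 3.05 on the labelled transgenic arrays and at 8.05 to 8.64 in wild type. Kdm5d, also Y-linked, ran from 3.87 to 4.35 on the labelled transgenic arrays and from 6.41 to 6.95 in wild type. The label and this Y-linked signal cannot be told apart. A difference in sex between the groups thus cannot be told apart from the label in any difference given here. Labelled transgenic 05 stood apart, with the lowest array median (5.98, where the highest was 6.21), the lowest mean correlation with the other arrays (0.966) and the lowest array weight (0.284). Of 8 measured markers of stem and early progenitor cells, 6 were lower in labelled transgenic, where 11742 of all 23332 clusters were lower. Of the 8, 1 was lower at unadjusted p under 0.05 by limma (12.5%, against 5.05% of all clusters). The 2 higher ones, Slamf1 (0.26) and Gata2 (0.12), had groups that overlapped. Flt3, a receptor of early progenitors, ran from 8.63 to 9.02 on labelled transgenic arrays, against 9.43 to 9.66 in wild type, without overlap (difference -0.67, limma adjusted p = 0.283), and Procr differed by -0.44 with groups that overlapped. Kit averaged 10.45 ± 0.27 (SD, n = 3) on labelled transgenic and 10.50 ± 0.10 (SD, n = 4) on wild-type arrays, and Cd34 ran from 10.77 to 11.15 on labelled transgenic and from 11.08 to 11.19 on wild-type arrays. Sca-1 (Ly6a) had no single-symbol cluster. The mean over the list ran from 8.59 to 9.15 on labelled transgenic and from 8.97 to 9.15 on wild-type arrays. Over 4 mature B cell markers it ran from 5.62 to 5.72 against 5.73 to 6.02 in wild type, over 5 T and NK cell markers from 5.85 to 5.95 against 5.87 to 6.11, over 6 mature myeloid markers from 5.16 to 5.37 against 5.08 to 5.47, and over 3 erythroid markers from 6.08 to 6.17 against 5.88 to 6.06. The B cell markers were split. Pax5 (-0.66) and Cd79a (-0.67) were lower without overlap, and Cd79b (0.41) and Ms4a1 (0.20) were higher with groups that overlapped. The part of all these cell types in the differences below was not tested. In bulk samples, fewer cells of a type and less RNA per cell cannot be told apart.

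The promoters of the genes with the lowest p-values among the 44 (Prpf31, Prpf3, Prpf6 and Sf3b3) are shown with that of Sf3b1, the SF3B partner of Sf3b3 that lay on the other side of 0. Each window holds 250 bases before and 50 after the RefSeq gene start in build GRCm38.p6, read 5′ to 3′ along the gene. RefSeq windows were matched for 35 of the 44 genes, without Lsm1, Lsm4, Lsm12, Luc7l, Prpf18, Sf3b4, Sf3b5, Snrpd1 and U2af2. Capitals mark matches, on either strand, to the letters of an ETS motif (CCGGAAG), an E-box (CACGTG), a palindromic NRF1 motif, a CCAAT box (CCAAT), a YY1 motif (AAGATGGC) or a TATA box (TATAAA), and no marked matches overlap.
Prpf31, chr7:3629735-3630034, plus strand: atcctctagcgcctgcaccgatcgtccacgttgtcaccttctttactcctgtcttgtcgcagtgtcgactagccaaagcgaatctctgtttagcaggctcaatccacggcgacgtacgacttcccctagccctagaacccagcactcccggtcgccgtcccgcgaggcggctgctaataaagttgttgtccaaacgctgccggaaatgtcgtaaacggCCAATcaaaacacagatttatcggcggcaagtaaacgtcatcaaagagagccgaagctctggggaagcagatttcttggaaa
Prpf3, chr3:95855836-95856135, minus strand: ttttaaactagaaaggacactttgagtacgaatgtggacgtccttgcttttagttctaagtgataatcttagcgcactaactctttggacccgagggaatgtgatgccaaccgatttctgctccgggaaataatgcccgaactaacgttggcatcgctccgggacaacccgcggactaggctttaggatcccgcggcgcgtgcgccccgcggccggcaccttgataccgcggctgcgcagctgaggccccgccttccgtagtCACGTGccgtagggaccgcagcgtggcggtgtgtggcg
Prpf6, chr2:181601069-181601368, plus strand: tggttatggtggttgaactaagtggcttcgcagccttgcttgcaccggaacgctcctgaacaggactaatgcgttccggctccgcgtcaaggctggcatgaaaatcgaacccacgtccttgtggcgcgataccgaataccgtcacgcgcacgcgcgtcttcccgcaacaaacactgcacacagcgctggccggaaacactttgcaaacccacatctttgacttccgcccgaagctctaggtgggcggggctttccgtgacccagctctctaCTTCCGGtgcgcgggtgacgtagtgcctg
Sf3b3, chr8:110846754-110847053, minus strand: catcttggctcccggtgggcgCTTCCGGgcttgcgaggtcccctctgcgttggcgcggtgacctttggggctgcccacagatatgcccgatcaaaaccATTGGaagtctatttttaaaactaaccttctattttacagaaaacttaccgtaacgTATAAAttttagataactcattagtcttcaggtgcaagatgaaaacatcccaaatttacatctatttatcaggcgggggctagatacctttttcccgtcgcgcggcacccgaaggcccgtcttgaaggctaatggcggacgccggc
Sf3b1, chr1:55027429-55027728, minus strand: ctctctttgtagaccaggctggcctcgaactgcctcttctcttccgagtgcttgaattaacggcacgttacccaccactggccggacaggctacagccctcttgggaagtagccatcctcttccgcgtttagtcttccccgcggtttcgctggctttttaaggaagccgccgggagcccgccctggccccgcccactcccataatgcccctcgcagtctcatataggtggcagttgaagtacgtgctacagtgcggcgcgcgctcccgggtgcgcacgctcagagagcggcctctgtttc

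The Prpf6 window holds an ETS match (on the opposite strand), that of Prpf3 an E-box and that of Prpf31 a CCAAT box. The Sf3b3 window holds an ETS match, a CCAAT match and a TATA match, and that of Sf3b1 none of the 6. An ETS match was found in 12 of the 35 matched windows (34.3%), in 9.12% of 27025 windows of all genes (1 per gene) and in 20.3% of 5706 windows of genes with a signal at least as high as that of the lowest of the 44. CCAAT matches were found in 48.6%, 37.9% and 38.6% of these 3 sets, E-box matches in 8.57%, 7.24% and 10.9%, TATA matches in 5.71%, 14.2% and 6.38%, YY1 matches in 2.86%, 2.88% and 5.92%, and NRF1 matches in 0 of the 35 windows, 0.977% and 2.24%. Median GC content was 59.0%, 52.67% and 61.67%. The 12 genes with an ETS match had a median difference between the groups of 0.12 (9 higher) and the other 23 one of 0.09 (15 higher).

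Compared between the groups, most of the 44 genes lay slightly above wild type, and none passed the adjusted threshold. Log2 differences (labelled transgenic minus wild type, as in all that follows) ran from -0.39 (Prpf39) to 0.43 (Prpf31), and 31 genes were higher and 13 lower. A difference above 0 was also found in 49.7% of all clusters and in 53.2% of those at least as bright as the dimmest of the 44. The median was 0.09, against -0.002 over all 23332 clusters and 0.02 over these 10000 brighter clusters. By limma with Benjamini-Hochberg adjustment over all clusters, 0 of 44 passed 0.05 (lowest adjusted p = 0.398), where 0.0214% of all clusters did. At unadjusted p under 0.05, 5 were higher (11.4%) and 0 lower, against 5.22% higher and 5.05% lower of all clusters, and 8.07% higher and 5.95% lower of those at least as bright. The groups did not overlap in 7 genes, all higher in labelled transgenic (15.9%), against 5.17% of all clusters higher and 5.18% lower, and 7.52% higher and 5.97% lower among those at least as bright. Array 05 carried weight here. Without it, 39 of 44 were higher, 7 of them at unadjusted p under 0.05 (15.9%, against 11.7% of all clusters). The median was then 0.17, against 0.04 over all clusters. Without array 04 the count at unadjusted p under 0.05 was 0 (2.99% of all clusters), without array 03 it was 1 (3.46% of all clusters), and without wild type 23 it was 3 (3.21% of all clusters). These counts thus changed when single mice were left out, and so did the share of all clusters. Leaving out an array also lowers precision. The 5 genes of the main count stayed higher, at 0.30 (Sf3b3) to 0.36 (Prpf31) without array 04.

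**Figure D1:**
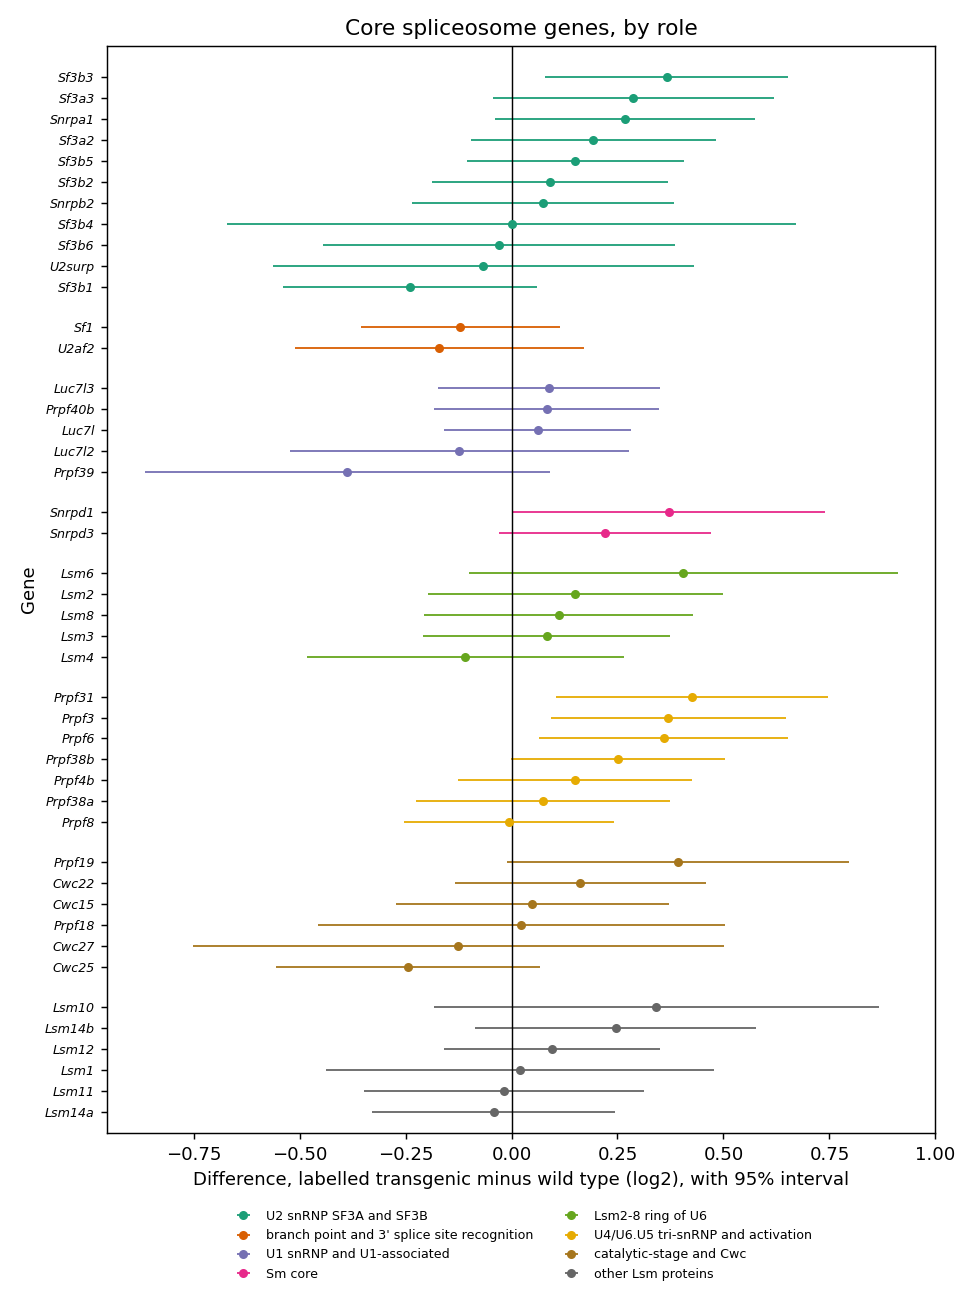
Difference in level of each of the 44 genes (log2, labelled transgenic minus wild type, x axis) with its 95% interval from limma, grouped and coloured by role. Most points lie right of 0, the interval excludes 0 in 5 genes (Prpf31, Prpf3, Prpf6, Sf3b3 and Snrpd1), and the U4/U6.U5 group holds 3 of them.

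The U4/U6.U5 tri-snRNP held 3 of the 5 genes higher at unadjusted p under 0.05. Prpf31, whose protein clamps U4 snRNA to the particle, had 9.24, 9.23 and 8.82 on labelled transgenic 03, 04 and 05, against 8.75, 8.63, 8.54 and 8.75 on the wild-type arrays. Array 05 was close to the highest wild-type arrays, and the groups did not overlap. The difference was 0.43 (SE 0.14, 1.34-fold, limma adjusted p = 0.400).

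Prpf3, a U4/U6 protein, had 8.78, 8.81 and 8.62 on labelled transgenic 03, 04 and 05, against 8.18, 8.42, 8.34 and 8.52 in wild type. All 3 labelled transgenic arrays were above the highest wild-type array, 24, and the difference was 0.37 (SE 0.12, limma adjusted p = 0.398). Prpf6, whose protein bridges U5 and U4/U6, had 8.35, 8.33 and 7.98 on labelled transgenic arrays, against 7.85, 7.86, 7.78 and 7.96 in wild type. Arrays 03 and 04 were well above wild type and 05 barely so, for a difference of 0.36 (SE 0.13, limma adjusted p = 0.413). Human PRPF31, PRPF3, PRPF6 and PRPF8 share another disease link, since mutations in each cause retinitis pigmentosa.

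Prpf8, the scaffold of the catalytic centre, had groups that overlapped. Its levels were 10.26, 10.19 and 10.02 on labelled transgenic arrays, against 10.10, 10.13, 10.16 and 10.26 in wild type. Array 05 was the lowest of all and wild type 24 the highest. The difference was -0.01, with a 95% interval of -0.25 to 0.24. Set against Prpf8 on the same array, which removes any shift common to both, Prpf31 stood 0.47, 0.53 and 0.29 above its wild-type mean on labelled transgenic 03, 04 and 05, against -0.12 to 0.15 in wild type. This pair was chosen after the values were seen, so it has no test. The remaining genes grouped here were Prpf38b (9.65 to 9.87 against 9.42 to 9.63 in wild type, difference 0.25, limma adjusted p = 0.489), Prpf4b, a kinase of the tri-snRNP (0.15), and Prpf38a, which takes part in activation (0.07). In this role group of 7 genes, 6 were higher, 3 at unadjusted p under 0.05 (42.9%, against 5.22% of all clusters and 8.07% of the bright ones), and the median was 0.25.

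**Figure D2:**
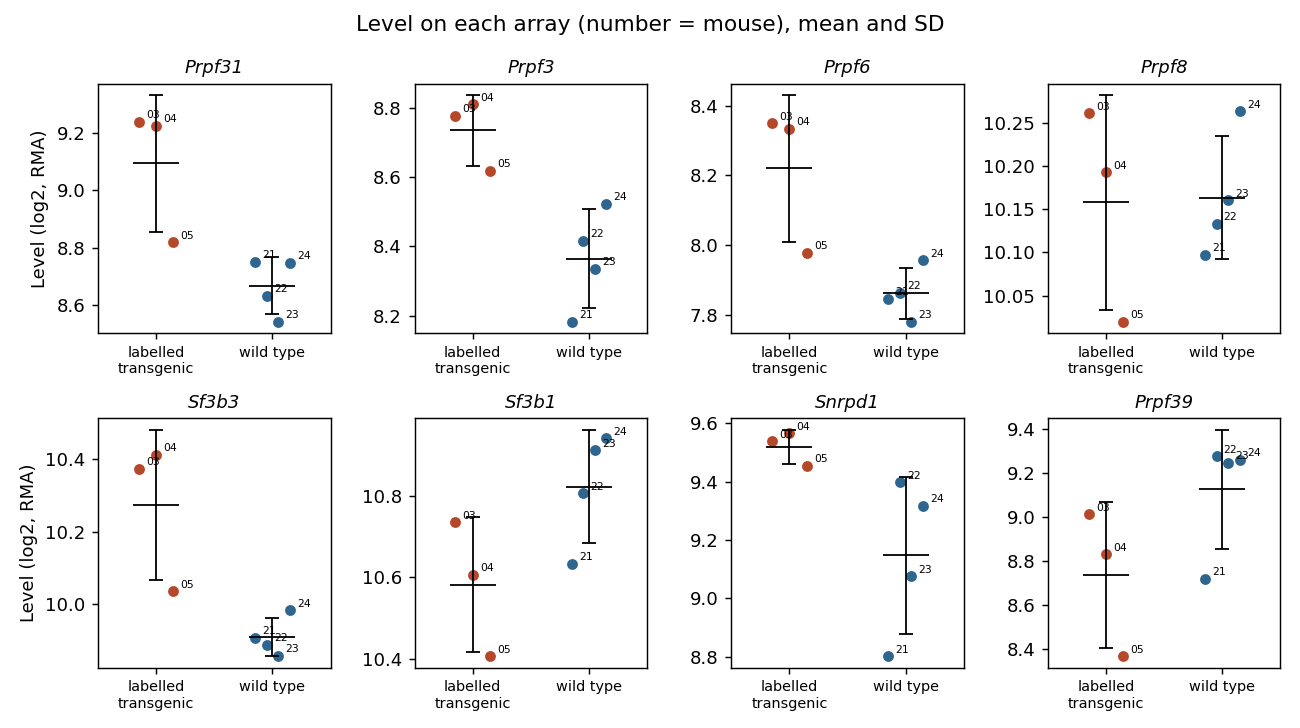
Level (log2, RMA, y axis, own scale and not from 0 in each panel) of 8 genes on each array, with labelled transgenic arrays left and wild-type arrays right, and the mean and SD (n = 3 and n = 4) in black. Prpf31, Prpf3, Prpf6, Sf3b3 and Snrpd1 do not overlap between the groups, while Prpf8, Sf3b1 and Prpf39 do, and array 05 is the lowest labelled transgenic array in every panel.

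Tri-snRNP genes outside the 44 were also measured. With Prpf31, Prpf3, Prpf6, Prpf8 and Prpf4b, 13 genes tied to the U5, U4/U6 and tri-snRNP particles were put together after the values had been seen. The choice took in the recycling factor Sart3. It left out the Sm and Lsm rings of these particles, given below, with 1 of 2 and 0 of 5 measured genes at unadjusted p under 0.05. Of the 13, 12 were higher, 7 at unadjusted p under 0.05 and without overlap (53.8%). Of all clusters, 5.22% were higher at that p and 5.17% without overlap. Among the bright ones these shares were 8.07% and 7.52%. The share is a description. The 4 of these 7 outside the 44 were Sart3 (0.38), which recycles U4/U6, Ddx23 (0.32), a helicase of the tri-snRNP, Eftud2 (0.31), the GTPase of U5, and Usp39 (0.28). Ddx23 had 8.92, 9.04 and 8.75 on labelled transgenic arrays, against 8.58, 8.55, 8.61 and 8.60 in wild type. Sart1 (0.13), Txnl4a (0.10), Snrnp200 (0.07), the helicase that unwinds U4 from U6, and Snrnp27 (0.04) had groups that overlapped.

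In the U2 snRNP the subunits of one complex lay on both sides of 0. Sf3b3, a large structural subunit of SF3B, had 10.37, 10.41 and 10.04 on labelled transgenic 03, 04 and 05, against 9.91, 9.89, 9.86 and 9.98 in wild type. The groups did not overlap, though array 05 was near wild type 24. The difference was 0.37 (SE 0.12, 1.29-fold, limma adjusted p = 0.410).

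Sf3b1, the branch-point-binding subunit and the splicing gene most often mutated in human myelodysplasia, had 10.74, 10.61 and 10.41 on labelled transgenic arrays, against 10.63, 10.81, 10.91 and 10.94 in wild type. Wild type 21 lay below labelled transgenic 03, so the groups overlapped. The difference was -0.24 (SE 0.13, limma adjusted p = 0.564), with a 95% interval of -0.54 to 0.06.

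Relative to Sf3b1 on the same array, Sf3b3 stood 0.55, 0.72 and 0.54 above its wild-type mean on labelled transgenic 03, 04 and 05, against 0.19, -0.005, -0.14 and -0.04 on wild type 21 to 24. In this measure array 05 was level with array 03. The pair was picked for its opposite differences, and the values are a description.

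Of the 11 genes in this role group, 8 were higher (72.7%, against 49.7% of all clusters and 53.2% of the bright ones). At unadjusted p under 0.05, 1 was higher (9.09%, against 5.22% and 8.07%). Sf3a3 (0.29) and Sf3a2 (0.19) of SF3A, Snrpa1 (0.27) and Snrpb2 (0.07), which encode U2-A′ and U2-B″, and the SF3B subunit genes Sf3b5 (0.15) and Sf3b2 (0.09) were on the higher side without passing. Sf3b6, whose protein contacts the branch point adenosine, stood at -0.03 and U2surp at -0.07. The value of Sf3b4 (0.0002, 95% interval -0.67 to 0.67) is uncertain. Cluster identifiers of this array run by chromosome, so that 99.3% of single-gene clusters have most of their 20 nearest named neighbours on their own chromosome. The clusters named Sf3b4 and U2af2 have 0 of 20, and whether they read another copy of the gene was not tested.

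Recognition of the branch point and 3′ splice site was represented by Sf1 and U2af2. Sf1, which binds the branch point before U2 does, had 10.73, 10.77 and 10.57 on labelled transgenic arrays, against 10.81, 10.76, 10.79 and 10.90 in wild type. Labelled transgenic 04 lay just above wild type 22, and the difference was -0.12 (95% interval -0.36 to 0.11, limma adjusted p = 0.719). The cluster named U2af2, for the subunit that binds the polypyrimidine tract, stood at 7.73 ± 0.12 (SD, n = 3) on labelled transgenic and 7.90 ± 0.22 (SD, n = 4) on wild-type arrays, a difference of -0.17 (95% interval -0.51 to 0.17), with the doubt about its cluster given above.

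U1-associated genes held the lowest difference of the 44. Prpf39, whose yeast relative is a U1 snRNP protein, had 9.01, 8.83 and 8.37 on labelled transgenic 03, 04 and 05, against 8.72, 9.27, 9.24 and 9.26 in wild type. Wild type 21 fell among the labelled transgenic arrays, while the other wild-type arrays lay close together and above all of them. The difference was -0.39 (SE 0.20, limma adjusted p = 0.563). Luc7l2, related to a yeast U1 protein, averaged 9.79 ± 0.25 (SD, n = 3) on labelled transgenic and 9.91 ± 0.22 (SD, n = 4) on wild-type arrays, and its difference of -0.12 was within that spread. Its relatives Luc7l3 (0.09) and Luc7l (0.06) and the U1-bridging Prpf40b (0.08) also overlapped. Prpf40b had the lowest signal of the 44, above that of 57.1% of all clusters, so none of the 44 lay in the dim part of the array. Signals of different clusters depend on their probes and do not rank the genes.

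Both measured Sm core genes were higher. Snrpd1, for SmD1, had 9.54, 9.57 and 9.45 on labelled transgenic arrays, against 8.80, 9.40, 9.08 and 9.32 in wild type. The labelled transgenic arrays lay close together above a wide wild-type spread whose lowest array was 21. The difference was 0.37 (SE 0.16, limma adjusted p = 0.483). Snrpd3, for SmD3, had 10.46, 10.42 and 10.38, against 10.30, 10.15, 10.05 and 10.31 in wild type, also without overlap (difference 0.22, limma adjusted p = 0.531). For comparison, 5.17% of all clusters and 7.52% of the bright ones were higher without overlap. Short genes of this kind have processed copies in the genome, and whether the probes read copies was not tested.

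The Lsm2 to Lsm8 ring, which holds the end of U6 snRNA, was represented by 5 genes. Of these, 4 were higher (80%, against 49.7% of all clusters and 53.2% of the bright ones). At unadjusted p under 0.05, 0 of the 5 were higher, against 5.22% and 8.07%. Lsm6 had 9.55, 9.38 and 9.53 on labelled transgenic arrays, against 9.55, 8.57, 9.02 and 9.19 in wild type. Wild type 21 reached the labelled transgenic level and 22 lay far below, and the difference was 0.41 (SE 0.22, limma adjusted p = 0.564). Lsm2 (0.15), Lsm8 (0.11), Lsm3 (0.08) and Lsm4 (-0.11) overlapped as well.

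Of the 6 genes of Lsm proteins outside that ring, 4 were higher (66.7%, against 49.7% of all clusters and 53.2% of the bright ones). At unadjusted p under 0.05, 0 of the 6 were higher, against 5.22% and 8.07%. These Lsm proteins serve other steps. Lsm1 acts in mRNA decay, Lsm10 and Lsm11 in histone pre-mRNA processing with U7, and Lsm14a and Lsm14b in translational repression. Lsm10 varied most, with 7.23, 7.43 and 6.47 on labelled transgenic arrays, against 6.62, 6.68, 6.63 and 6.86 in wild type. Arrays 03 and 04 were above and 05 below every wild-type array, for a difference of 0.34 (SE 0.23). Its partner Lsm11 stood at -0.02, and Lsm14b (0.25), Lsm12 (0.10), Lsm1 (0.02) and Lsm14a (-0.04) overlapped between the groups.

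Genes of the catalytic stage were mixed. Prpf19, the ubiquitin ligase that names the PRP19 complex, had 10.42, 10.48 and 10.24 on labelled transgenic arrays, against 10.39, 9.69, 9.96 and 9.91 in wild type. Only wild type 21 reached the labelled transgenic range, and the difference was 0.39 (SE 0.17, limma adjusted p = 0.496). Cwc25, whose yeast relative acts at the first catalytic step, had 7.72, 7.79 and 7.46 on labelled transgenic arrays, against 7.70, 7.88, 8.06 and 7.96 in wild type, a difference of -0.24 (SE 0.13, limma adjusted p = 0.571). Cwc22 (0.16), which brings the exon junction complex to the spliceosome, Cwc15 (0.05), Prpf18 (0.02), a factor of the second catalytic step, and Cwc27 (-0.13) overlapped.

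Whole arrays ran high or low for the 44 genes. Relative to each gene's own wild-type mean, the median of the 44 was 0.20, 0.18 and -0.05 on labelled transgenic 03, 04 and 05, and -0.14, 0.05, -0.03 and 0.10 on wild type 21, 22, 23 and 24. The clusters at least as bright as the dimmest of the 44 had medians of 0.15, 0.11 and -0.19 on the labelled transgenic arrays and -0.05, -0.02, -0.02 and 0.09 on the wild-type arrays. The order of the arrays was the same for the 44 genes as for these clusters, apart from the lowest pair, labelled transgenic 05 and wild type 21. Among labelled transgenic arrays, 05 was the lowest in 39 of 44 genes, against 82.9% of the bright clusters. Among wild-type arrays, 21 was the lowest in 28 of 44, against 40.3%. The part of this array-wide shift in the gene differences was not tested apart from quantile normalization and centring. With quantile normalization, which gives all arrays the same distribution of values, 31 of the 44 were higher and the median was 0.08. At unadjusted p under 0.05, 7 were higher (15.9%, against 7.56% of all clusters) and 3 lower (against 6.36% of all clusters). With each array centred on its median, 35 of the 44 were higher, 9 at unadjusted p under 0.05 (20.5%, against 9.25% of all clusters). The median of the 44 was then 0.14, against 0.06 over all clusters.

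**Figure D3:**
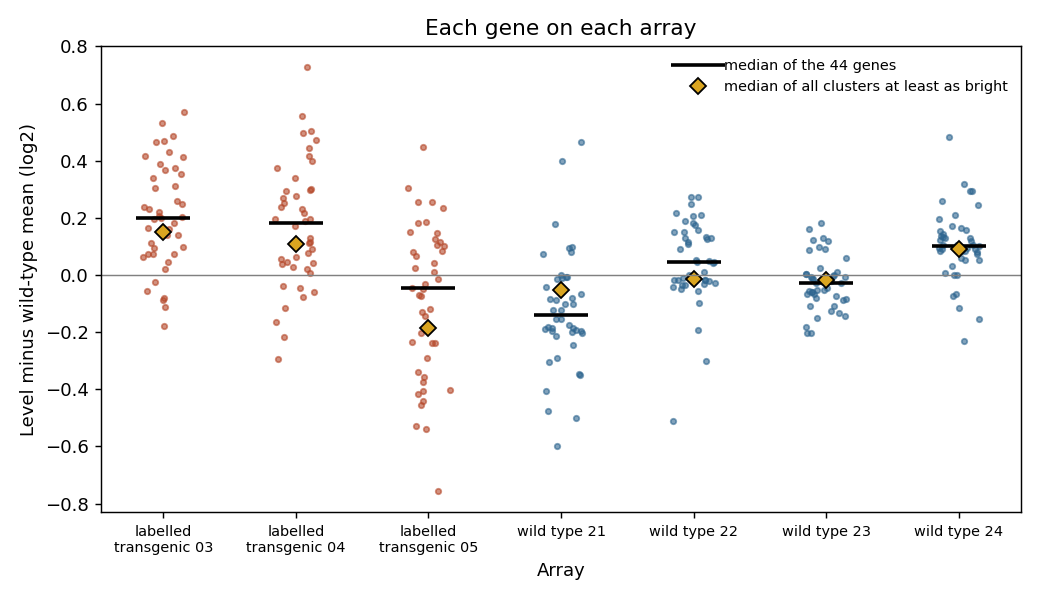
Level of each of the 44 genes minus its own wild-type mean (log2, y axis) on each array, with the median of the 44 as a black bar and the median of the 10000 clusters at least as bright as a diamond. The bars stand at 0.20 and 0.18 on labelled transgenic 03 and 04 and at -0.05 on 05, and the diamonds follow the same order among these arrays.

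All 27 measured genes of a list of replication and mitosis genes were higher, 13 at unadjusted p under 0.05 (48.1%, against 5.22% of all clusters and 8.07% of those at least as bright as the dimmest of the 44). None passed the adjusted threshold by limma (lowest adjusted p = 0.283). The list had a median difference of 0.34 and array means of 8.83, 8.74 and 8.53 on labelled transgenic 03, 04 and 05, against 8.27, 8.47, 8.18 and 8.46 in wild type. The part of cell cycling in the differences of the 44 was not tested.

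Other genes of the pathway were listed by function. Of 66 spliceosome genes outside the 44, 45 were higher (68.2%, against 49.7% of all clusters and 53.2% of those at least as bright as the dimmest of the 44). At unadjusted p under 0.05, 11 were higher (16.7%, against 5.22% and 8.07%) and 0 lower, and the median of the list was 0.08. Without the 7 tri-snRNP genes already described, 38 of 59 were higher (64.4%), with a median of 0.07. At unadjusted p under 0.05, 7 of the 59 were higher (11.9%, against the same 5.22% and 8.07%). The lowest p-values belonged to Ppil1, a peptidyl-prolyl isomerase of the activated spliceosome, with 7.06, 6.87 and 6.77 on labelled transgenic arrays, against 6.37, 6.26, 5.95 and 5.88 in wild type (0.79, limma adjusted p = 0.283), to Gpatch1 (0.47, limma adjusted p = 0.330) and to Ncbp2, the small subunit of the nuclear cap-binding complex (0.57, limma adjusted p = 0.349). Of 19 genes that assemble snRNPs, 15 were higher (78.9%), with a median of 0.24, and 4 were so at unadjusted p under 0.05 (21.1%, against the same 5.22% and 8.07%). These 4 were Gemin5 (0.45), which picks out snRNAs for the SMN complex, Gemin4 (0.56) and Gemin2 (0.42) of the same complex, and Wdr77 (0.45), the partner of the methyltransferase Prmt5 that modifies Sm proteins. Of 11 genes specific to the minor spliceosome, which removes a rare class of introns, 5 were higher, with a median of -0.04. At unadjusted p under 0.05, 1 was higher (Snrnp35, 0.37), or 9.09% against the same 5.22% and 8.07%. None of these lists held a gene past the adjusted threshold by limma.

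Among the hnRNP and SR splicing regulators, 15 of 30 measured genes were higher and the median was 0.003. Srsf1 (0.33) was the 1 gene at unadjusted p under 0.05 (3.33%, against 5.22% of all clusters higher). The array means of these regulators were 10.01, 9.94 and 9.67 on labelled transgenic 03, 04 and 05, against 9.69, 9.93, 9.85 and 9.95 in wild type. Array 05 was thus below every wild-type array. The 44 averaged 9.06, 9.03 and 8.77 on labelled transgenic arrays, against 8.73, 8.90, 8.83 and 8.96 in wild type, with array 05 between wild type 21 and 23. Whether the lists differ from each other was not tested.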

How the data were processed

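RNA of LSK cells from 7 mice was hybridised to 1 Affymetrix Mouse Exon 1.0 ST array each after NuGEN amplification, per the labels' protocols. The deposited log2 values (23332 transcript clusters, 1.28 to 14.03) are RMA output of the authors; RMA and the build mm9 are named in the submitters' processing notes. RMA includes a step that equalises arrays, and shifts between arrays remained in the deposited values. Settings of RMA and its probe filters are not given in the sources used here; a log2 scale was inferred from the range of the deposited values. Exon-level values were not used here, so exon usage was not analysed.

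Groups came from sample titles. Gene names came from the platform annotation (14996 clusters with 1 symbol, 1019 with several, 7317 with none), and all 44 symbols matched a GRCm38 RefSeq gene table by Entrez identifier. The gene test was limma 3.58.1 in R 4.3.3 (lmFit and eBayes, two-sided, genotype as the only term, no filter), with Benjamini-Hochberg adjustment across all clusters and 0.05 as threshold. It was also run on simulated data with independent noise for each cluster and array. Those data lack shifts shared by a whole array, so that run does not bear on such shifts. The p-values set each group difference against the spread within groups, which limma moderates across clusters. With 1 array per mouse, that spread holds differences between mice and between arrays together, and precision is limited by the number of arrays. The genes, lists and tests were chosen with earlier results of these data known. Values are given for the up to 16 genes with the lowest unadjusted p under 0.05 and for genes mutated in myeloid neoplasia in humans. The highest and lowest difference of each role group, and the 2 highest and 2 lowest signals, are also given. Some of these genes have values per array, others the group mean and SD or the difference alone. Other members are named with values, some of them per array, after these were seen. Alternatives were a filter on signal below the 40th percentile, quantile normalization, median centring, array weights, a trended robust prior, 1 cluster per gene, the mean of a gene's clusters, unmoderated least squares and leaving out each array. Plots used matplotlib 3.10.9 (Python 3.11.15).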

Additional observations from a re-analysis of the deposited data

Results flagged for a closer look

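Prpf39 on wild type 21 stood apart from its group, at 8.72 against 9.24 to 9.27 on the other 3 wild-type arrays, a gap of 0.947 of the group's range, above Dixon's 95% critical value for 4 samples. It was the only gene to do so among the 44 and Traf6. Chance alone flags about 1 gene in 20 at this value, so 1 flag among all these genes is no more than chance gives. The labelled transgenic group of 3 arrays was too small for this check.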

How the results depend on the processing

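No gene of the 44 passed the adjusted threshold by limma under any alternative run (lowest adjusted p 0.0907, Prpf31 with array weights). The number higher at unadjusted p under 0.05, 5 in the main analysis, was 9 after centring each array on its median, 11 with array weights and 8 with a trended robust prior, while the share of all clusters, 5.22% in the main analysis, was 9.25%, 13.1% and 5.39%. It ran from 0 to 7 on leaving out single arrays. The number lower was 3 after quantile normalization (Cwc25, Prpf39 and Sf3b1; 6.36% of all clusters were lower there) and ran from 0 to 1 on leaving out single arrays. The median difference of the 44 stayed above 0 under every alternative, from 0.05 without wild type 21 to 0.17 without labelled transgenic 05. These changes were smaller than 0.118, the pooled SD within groups of the array medians of the 44. The main value of 0.09 was itself smaller than that SD. Leaving out Sf3b4 and U2af2, an alternative chosen after seeing the data, kept the 5 and gave a median of 0.09. Differences near 0 changed sign under some alternatives, and the cause was not tested. Prpf8 became 0.0522 after centring and 0.0373 with array weights, and ran from -0.0573 to 0.0636 without single arrays (above 0 without labelled transgenic 05 and wild type 24). Lsm11 became 0.00179 after quantile normalization and 0.0391 after centring, and ran from -0.0979 to 0.0729 without single arrays (above 0 without labelled transgenic 05, wild type 22 and wild type 23). Lsm14a became 0.0156 after centring and 0.0140 with array weights, and ran from -0.100 to 0.0555 without single arrays. Lsm4 became 0.0291 with array weights and ran from -0.191 to 0.0150, and Luc7l2 from -0.224 to 0.0184, without single arrays. Among the arrays left out, these 3 were above 0 only without labelled transgenic 05. Prpf40b ran from -0.0109 (without labelled transgenic 04) to 0.147. The other 299 of 315 recomputed differences of named members kept their sign. No paired analysis was possible because the groups share no replicate numbers.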
